A study of Peromyscus maniculatus with 6 samples.

Results

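The 10 genes described here are widely used to recognise fibroblasts and were followed through cultures from 3 deer mice: Pdgfra, Pdgfrb, Thy1, Prrx1, Twist1, Twist2, S100a4, Fap, Vim and Lum. They were chosen by symbol, and all 10 of the 10 listed symbols were found, each on a single gene ID, among the 24281 genes of the deposited table. The cells were primary fibroblasts of the BW stock of Peromyscus maniculatus, grown from ear punches of animals 4 weeks old. From each of BW35770, BW35772 and BW35773 came 1 control well and 1 well given tunicamycin at a labelled 5 mg per mL for 5 h, after 24 h in wells of 300000 cells, so there were 3 control and 3 tunicamycin libraries. That concentration could not be checked here, and neither the vehicle of the control wells nor the passage number is stated in the labels. Libraries held 37852385 to 49352126 counts on genes.

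Fibroblasts make and anchor connective tissue matrix, and no single gene defines them. Surface proteins, transcription factors of the embryonic mesenchyme, the vimentin cytoskeleton and matrix proteoglycans are read together as their signature, and each is also made by some other mesenchymal cell. Tunicamycin blocks N-linked glycosylation and so causes unfolded glycoproteins to collect in the endoplasmic reticulum. Several of the genes described here encode glycoproteins that pass through that compartment, among them both PDGF receptors, Thy1, Fap and lumican.

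More of these genes were called between animals than between treatments. The tests were unlike, since the main tunicamycin fit had no animal term and kept differences between animals in its error. Thy1 was about 8.42 times and Twist2 about 4.57 times as high in the cultures of BW35770 as in the mean of the other animals' cultures, while Fap and Lum were lower in BW35770. Of the 10 genes 4 differed between the 3 animals' cultures (edgeR quasi-likelihood F test with treatment as a term, adjusted p under 0.05), beside 3.53% of the 13503 genes tested. Without either library of BW35770 alone 2 of the 10 remained called, Thy1 and Twist2. Calls over all genes also fell, to 64 of 13703 without its control library and 74 of 13660 without its tunicamycin library. With tunicamycin 0 of the 10 rose and 0 fell by the same tool without an animal term, beside 1.78% higher and 0.792% lower over all tested genes. At an unadjusted edgeR p under 0.05 there was 1 of the 10, beside 15.5% of all tested genes, and DESeq2 called 1 of the 10 lower, beside 3.36% of the genes it tested. That gene was Prrx1, which was lower in all 3 animals and was called when the animal entered the fit as a block. That fit called 0 of the 10 higher and 1 lower, beside 3.07% and 2.4% of all tested genes.

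**Figure D1:**
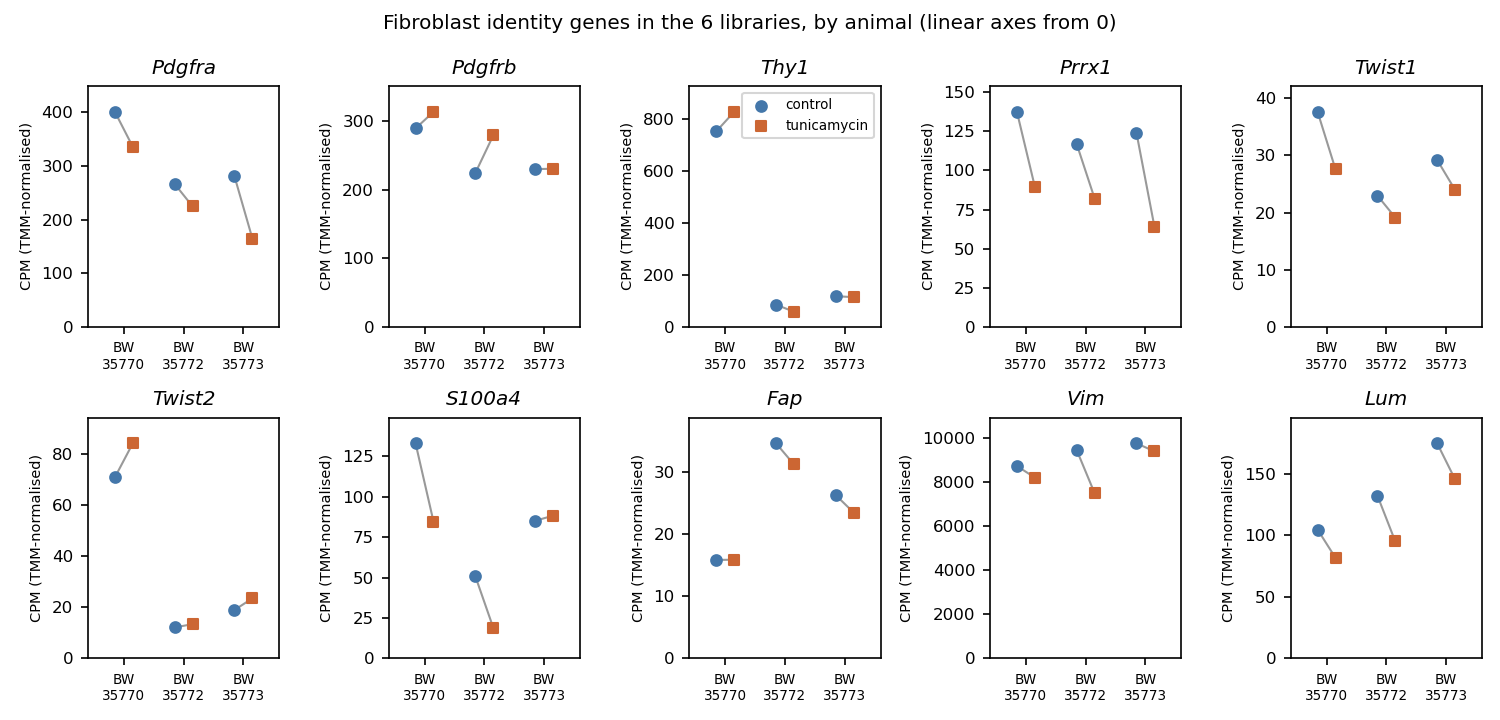
Level of each gene in CPM (TMM-normalised share of library counts, linear axis from 0) in the 3 animals, with the control library as a circle and the tunicamycin library of the same animal as a square joined by a line. Thy1 and Twist2 stood far higher in both libraries of BW35770, and the lines of Prrx1 sloped down in every animal.

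All 10 genes passed the filter on low counts, and none was scarce. The lowest count of any of them in any library was 440, for Twist2 in the BW35772 control. Levels of different genes were compared per kilobase of annotated exon (RPKM). Such levels depend on the annotated lengths, only 444 bases for Twist1, and whether these are complete was not checked. Vim led with 3999 ± 393 RPKM (SD over 6 libraries), above 99.9% of tested genes, and alone took 0.793 to 0.974% of all counts on genes in a library. It was the only gene whose libraries lay wholly above those of the next gene in order.

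The order of mean levels after Vim was Thy1 with 171.5 ± 189.9, S100a4 with 132.2 ± 66.5, Prrx1 with 102.1 ± 28.1 and Lum with 67.8 ± 19.4 RPKM. Below these came Twist1 with 60.2 ± 14.4, Pdgfrb with 47.9 ± 6.93, Pdgfra with 39.0 ± 11.6, Twist2 with 27.9 ± 23.9 and Fap with 9.12 ± 2.88 RPKM. From Thy1 downward every neighbouring pair in that order overlapped in the range of its 6 libraries. Fap stood near the middle of all tested genes, above 49.9% of them. The SD of Thy1 exceeded its mean because 2 of its libraries stood at 395.9 RPKM or more and the other 4 at 62.2 RPKM or less.

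**Figure D2:**
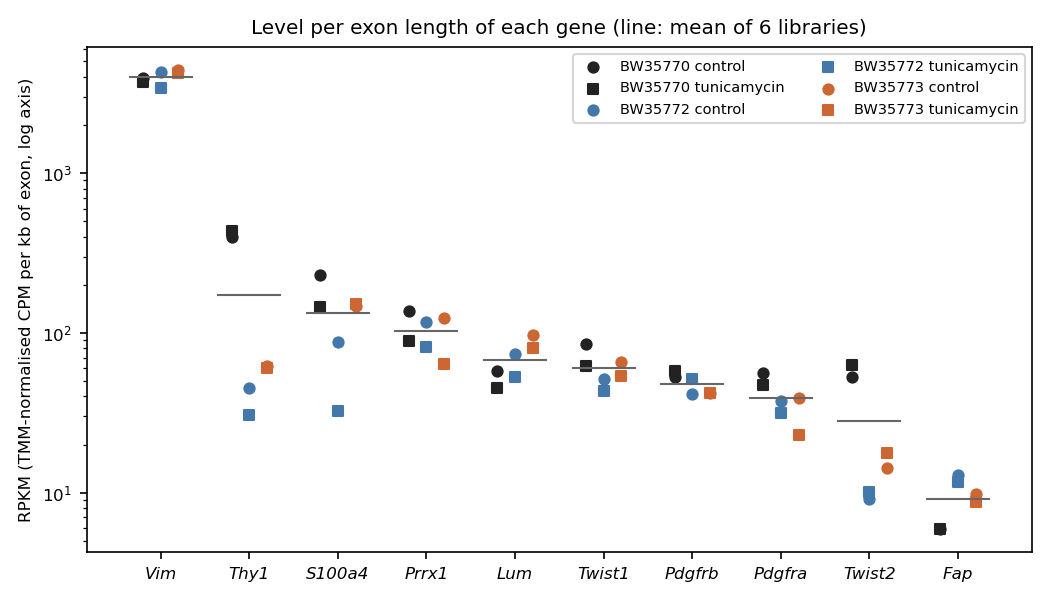
RPKM of each gene on a log axis, ordered by the mean of the 6 libraries (grey line), with circles for control and squares for tunicamycin and a colour per animal. Vim lay between 3389 and 4415 RPKM, and the other genes formed an overlapping series down to Fap between 5.89 and 12.9 RPKM.

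The label of fibroblasts was set against marker lists of other cells that an ear punch could hold. Many markers that define leukocytes, endothelium, keratinocytes and muscle precursors were at or near 0. Itgax, Cd3e, Kit, Cpa3 and Tyrobp had no count in any library, nor did Tie1, Krt1, Myf5 and Pax7, and the pan-leukocyte gene Ptprc averaged 0.00417 CPM. The 12 leukocyte genes in the table summed to 71.6 to 183.3 CPM, nearly all of it from the lysosomal protein Cd68, and the 11 keratinocyte genes to 10.1 to 32.6 CPM. Endothelial genes (10 in the table) summed to 3.68 to 12.6 CPM, Schwann cell and melanocyte genes (12) to 20.3 to 35.6 CPM and skeletal muscle genes (11) to 15.1 to 24.0 CPM. Adipocyte genes (7) summed to 83.3 to 227.7 CPM and pericyte and smooth muscle genes (12) to 2400 to 3776 CPM, most of it Acta2, which activated fibroblasts also make. The most abundant pair averaged 112.4 and 2.76 CPM (Cd68 and Cd14), 3.47 and 2.03 CPM (Flt1 and Pecam1) and 9.09 and 6.01 CPM (the keratins Krt14 and Krt17). Among Schwann cell and melanocyte genes Mitf led with 22.7 CPM. In the other lists the pair was Acta1 and Des with 18.4 and 0.513 CPM, Pparg and Lpl with 52.2 and 46.1 CPM, and Acta2 and Cspg4 with 2237 and 624 CPM.

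Chondrocyte genes were abundant and differed between animals. The 13 of them in the table summed to 1977 and 2206 CPM in the libraries of BW35770 and to 6531 to 9472 CPM in the other 4. Of 12 tested 9 were called lower in BW35770 than in each of the other animals, and 75% differed between animals beside 3.53% of all tested genes. Without either library of BW35770 alone 6 of the 12 were called, beside 64 of 13703 and 74 of 13660 tested genes. Col2a1, the collagen of cartilage, averaged 3746 CPM, and Acan, its main proteoglycan, 1563 CPM. The fibroblast genes described here were thus present in every library, and cartilage genes were expressed beside them. This did not hold for every gene of the broader fibroblast list described below. Of its 36 genes in the table, 33 passed the filter on low counts. The others, Cd34, Lrrc15 and Mfap5, averaged 0.303, 0.119 and 0.0995 CPM. Cd34 had no count in the tunicamycin libraries of BW35772 and BW35773, nor had Lrrc15 in the BW35770 control. Dpt and Pi16 passed but averaged only 1.39 and 2.04 CPM. In such bulk samples fewer cells of a type and less RNA per cell cannot be told apart.

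**Figure D3:**
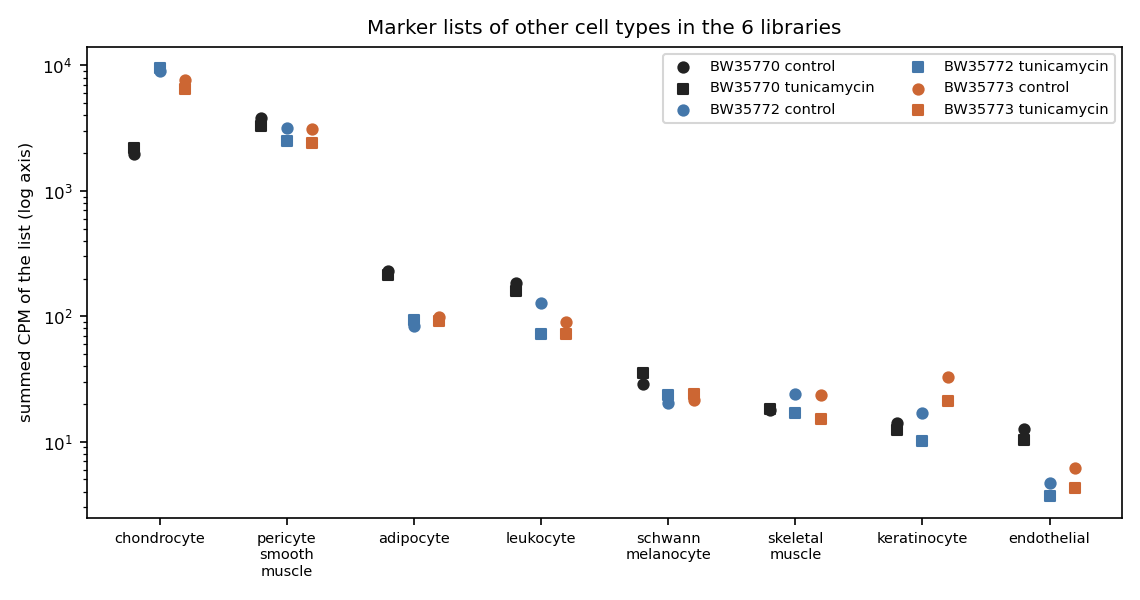
Summed CPM (log axis) of 8 marker lists of other cell types in each library, with circles for control, squares for tunicamycin and a colour per animal. Chondrocyte genes summed to 2206 CPM or less in BW35770 and to 6531 CPM or more in the others, while pericyte and smooth muscle, adipocyte, leukocyte, Schwann cell and melanocyte, and endothelial sums were higher in BW35770.

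Among the surface proteins, Thy1 encodes a small GPI-anchored glycoprotein (CD90) found on many fibroblasts, neurons and, in mice, T cells. It is ENSPEMG00000023969 on scaffold KI615933.1, bases 254668 to 259367 on the plus strand, with 4 exons. Control libraries stood at 751.8, 85.2 and 118.0 CPM in BW35770, BW35772 and BW35773, and tunicamycin libraries at 827.3, 58.1 and 114.0 CPM in the same order. Both libraries of BW35770 were high and the other 4 low, with no overlap, while control and tunicamycin overlapped widely.

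The 3 animals' cultures differed in Thy1 (edgeR F test, adjusted p = 0.0011; 2.06e-69 to 0.00677 over 11 alternatives). BW35770 exceeded BW35772 by a log2 difference of 3.48 ± 0.20 (SE, edgeR adjusted p = 0.000484) and BW35773 by 2.77 ± 0.20 (edgeR adjusted p = 0.00136). BW35772 and BW35773 differed by -0.71 ± 0.19 (BW35772 minus BW35773, edgeR adjusted p = 0.31), which was not called. The excess of BW35770 over the mean of the others was 7.40-fold in controls alone and 9.62-fold in tunicamycin libraries alone. In contrasts of single pairs of animals, 4 of the 10 genes were called between BW35770 and BW35772 (Thy1, Twist2, S100a4 and Fap) and 3 between BW35770 and BW35773 (Thy1, Twist2 and Lum), beside 3.92% and 2.88% of tested genes. Between BW35772 and BW35773 there were 0 of the 10, beside 0.311%, by the same edgeR test, and 5 of the 10 at an unadjusted p under 0.05, beside 9.87%. At least 4-fold excess in BW35770 was met by 59 genes, 0.437% of those tested, among them Thy1 and Twist2.

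These animal tests have a narrow meaning. The libraries of an animal share a culture and differ in treatment, so the error is the unevenness of the treatment response, and the animal, its culture and its passage history cannot be told apart. Chondrocyte genes summed lower in both libraries of BW35770 than in the other 4. Pericyte and smooth muscle genes summed higher there (3293 and 3776 CPM, against 2400 to 3178 CPM), as did adipocyte (212.7 and 227.7, against 83.3 to 98.9), leukocyte (159.7 and 183.3, against 71.6 to 127.1), Schwann cell and melanocyte (28.7 and 35.6, against 20.3 to 24.0) and endothelial genes (10.3 and 12.6, against 3.68 to 6.16). These higher sums came mostly from few genes: Acta2, Lpl with Pparg, Cd68, Mitf, and Flt1 with Pecam1. Cspg4, the next most abundant pericyte gene, was lower in BW35770 (453.2 and 401.4 CPM, against 565.9 to 865.8 CPM). A higher sum thus does not show that a whole list was higher. Whether cells of these types were present, and what part they had in the differences between animals, was not tested.

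Pdgfra and Pdgfrb encode the receptor tyrosine kinases for platelet-derived growth factors, which drive the growth and migration of mesenchymal cells. The alpha receptor is typical of fibroblasts and their progenitors, and the beta receptor is shared with pericytes. Pdgfra is ENSPEMG00000007844 (scaffold KI615443.1, bases 5939339 to 5984739, plus strand, 24 exons). An unnamed gene ID overlaps it on the same strand and drew 1 count over all libraries. Pdgfrb is ENSPEMG00000016131 (scaffold KI615566.1, bases 842579 to 881955, plus strand, 23 exons).

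Pdgfra stood at 401.1, 266.4 and 280.9 CPM in the controls of BW35770, BW35772 and BW35773 and at 335.7, 224.6 and 164.6 CPM with tunicamycin. Every animal was lower with treatment, by -0.26, -0.25 and -0.77 in log2 CPM, and the groups overlapped, with BW35770 highest in each. The log2 fold change was -0.39 ± 0.28 (SE, 95% interval -1.03 to 0.26, edgeR adjusted p = 0.594), which was not called. With the animal as a block it was -0.42 ± 0.14 (95% interval -0.75 to -0.10, edgeR adjusted p = 0.136), which was not called either.

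Pdgfrb went the other way. Its controls stood at 289.4, 224.4 and 230.1 CPM and its tunicamycin libraries at 313.7, 279.3 and 230.6 CPM, with differences within the animals of 0.12, 0.32 and 0.00 in log2 CPM. The groups overlapped, and the estimate of 0.15 ± 0.16 on the log2 scale (95% interval -0.23 to 0.52, edgeR adjusted p = 0.765) was not called. With the animal as a block it was 0.145 ± 0.115 (edgeR adjusted p = 0.537), which was not called either. The ratio of Pdgfra to Pdgfrb in RPKM was 1.06, 0.905 and 0.931 in the controls of BW35770, BW35772 and BW35773 and 0.816, 0.613 and 0.544 after tunicamycin. That ratio was lower with treatment in each animal, without overlap of the groups. It was noticed after the values were seen and was given no test.

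For neither receptor was the difference between animals called. The edgeR adjusted p was 0.0983 for Pdgfra (0.00454 to 0.972 over 11 alternatives, 4 of which called it) and 0.365 for Pdgfrb. Both libraries of BW35770 nonetheless lay above the other 4 for each receptor, as they did for Thy1 and Twist2, 4 of the 10 genes beside 10.5% of all tested genes. Pdgfrb varied little, between 224.4 and 313.7 CPM over all 6 libraries.

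Fap encodes fibroblast activation protein, a membrane-bound serine protease of the dipeptidyl peptidase family that marks activated and embryonic fibroblasts. It is ENSPEMG00000015175 (scaffold KI615552.1, bases 1241241 to 1317541, plus strand, 26 exons). Controls stood at 15.8, 34.6 and 26.2 CPM in BW35770, BW35772 and BW35773 and tunicamycin libraries at 15.9, 31.2 and 23.4 CPM. BW35770 was lowest in both treatments and BW35772 highest, the reverse of Thy1. It was the only one of the 10 genes with both BW35770 libraries below all others, which held for 8.92% of tested genes.

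Fap differed between the animals' cultures (edgeR F test, adjusted p = 0.0323; 0.000186 to 0.586 over 11 alternatives). BW35770 differed from BW35772 by -1.05 ± 0.16 in log2 terms (edgeR adjusted p = 0.0147). The call was lost without the control or the tunicamycin library of BW35770 (edgeR adjusted p = 0.586 and 0.445) and without a treatment term (0.112). In the same order these fits called 64, 74 and 146 of all tested genes, against 477 in the main fit. With tunicamycin the log2 fold change was -0.12 ± 0.33 (95% interval -0.89 to 0.65, edgeR adjusted p = 0.924) and with the animal as a block -0.10 ± 0.13 (95% interval -0.41 to 0.20), neither of them called.

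**Figure D4:**
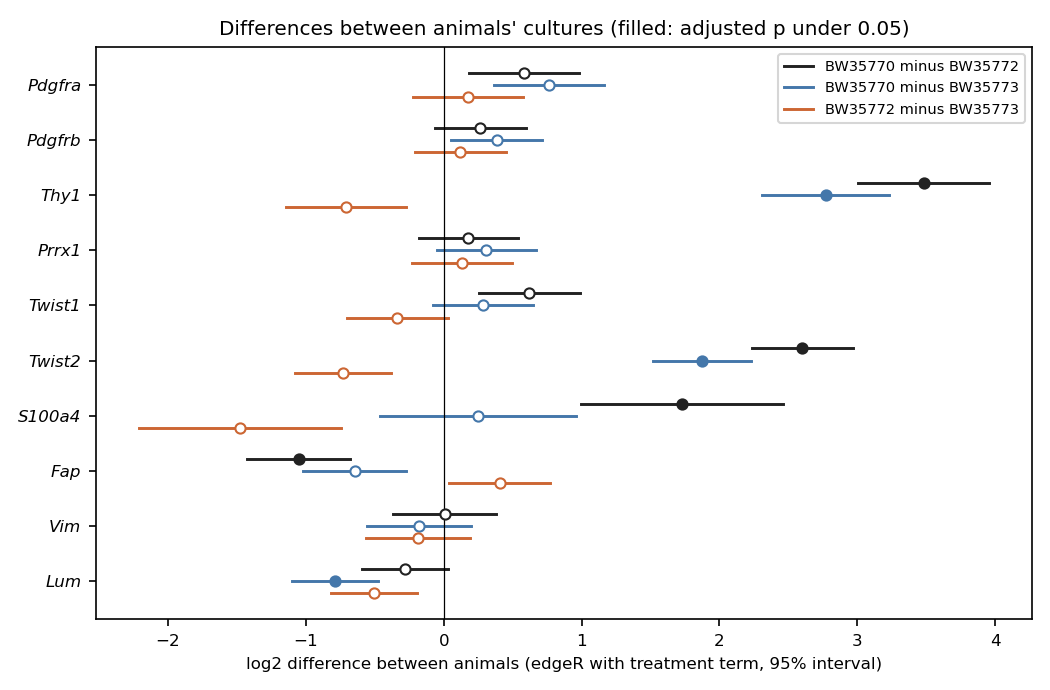
Log2 difference between each pair of animals for each gene (edgeR with treatment as a term; bars are 95% intervals, filled points have an adjusted p under 0.05). Thy1 at 3.48 and 2.77 and Twist2, whose difference from BW35773 was 1.87, were higher in BW35770, while Vim, Prrx1 and Pdgfrb stayed within 0.39 of 0 in each pair.

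Prrx1, Twist1 and Twist2 encode transcription factors of the mesenchyme. Prrx1 is a paired-type homeobox factor of limb and facial mesenchyme that persists in dermal and other fibroblasts. Twist1 and Twist2 are closely related basic helix-loop-helix factors that hold mesenchymal cells in an undifferentiated state. Reads from the similar part of Twist1 and Twist2 may be shared between them, since no source used here states how the authors handled reads that map to several places.

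Prrx1 showed the clearest difference with tunicamycin. It is ENSPEMG00000019719 (scaffold KI615366.1, bases 1475442 to 1534533, minus strand, 4 exons). Controls stood at 137.5, 116.9 and 124.0 CPM and tunicamycin libraries at 89.6, 82.0 and 64.1 CPM in BW35770, BW35772 and BW35773. Every control lay above every tunicamycin library. The groups did not overlap, in either direction, in 1 of the 10 genes and in 22.3% of all tested genes. Within the animals the log2 differences were -0.62, -0.51 and -0.95.

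Means of Prrx1 were 126.1 ± 10.5 CPM in controls and 78.6 ± 13.1 CPM with tunicamycin (SD, n = 3). The log2 fold change was -0.68 ± 0.15 (95% interval -1.03 to -0.33) and missed the threshold (edgeR adjusted p = 0.0658). With the animal as a block it was -0.69 ± 0.13 and Prrx1 was called lower (edgeR adjusted p = 0.0245), 1 of the 10 genes beside 2.4% of tested genes called lower by that fit. Over 15 alternatives the log2 fold change ran from -0.79 to -0.53 and the adjusted p from 0.00198 to 0.25. DESeq2 also called it (adjusted p = 0.0034). The blocked call was lost without the libraries of BW35770 (log2 fold change -0.73, edgeR adjusted p = 0.25), in a fit that called 37 of 13526 genes lower.

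Prrx1 also differed from the rest of the list in where its variation lay. Treatment took 82.4% and animal 11.5% of the sum of squares of its log2 CPM, against medians of 19.4% and 40.5% over all tested genes. Each of the other 9 genes had a larger share on the animal than on treatment. The animal share ran from 41.8% for Vim, with 36.1% on treatment, to 98.8% for Thy1 and for Twist2. The animal term has more levels than treatment and so takes a larger share even without any effect. A larger raw share thus does not show that the animal outweighed treatment. The difference between the animals' cultures in Prrx1 was not called (edgeR adjusted p = 0.536). These shares are descriptions of 6 libraries.

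Twist1 is ENSPEMG00000014600 (scaffold KI617438.1, bases 221913 to 222561, plus strand), a short gene model of 444 exon bases. Controls stood at 37.6, 23.0 and 29.2 CPM and tunicamycin libraries at 27.6, 19.1 and 24.0 CPM. Each animal was lower with treatment, by -0.45, -0.26 and -0.28 in log2 CPM, and the groups overlapped. On the log2 scale the estimate of -0.35 ± 0.22 (95% interval -0.85 to 0.16, edgeR adjusted p = 0.531) was not called, nor was the blocked value of -0.33 ± 0.13 (edgeR adjusted p = 0.193).

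Twist2 is ENSPEMG00000022923 (scaffold KI616219.1, bases 395845 to 449708, plus strand, 2 exons). Controls stood at 70.7, 12.1 and 18.9 CPM and tunicamycin libraries at 84.0, 13.4 and 23.4 CPM in BW35770, BW35772 and BW35773. As with Thy1, both BW35770 libraries were high and the other 4 low. The cultures differed (edgeR F test, adjusted p = 0.0011; 5.36e-38 to 0.0186 over 11 alternatives), with BW35770 above BW35772 by 6.07-fold (95% interval 2.24 to 2.97 on the log2 scale) and above BW35773 by 3.66-fold. The excess of BW35770 over the mean of the others was 4.57-fold in controls and 4.57-fold with tunicamycin.

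Each animal was slightly higher in Twist2 with tunicamycin, by 0.25, 0.15 and 0.31 in log2 CPM. Its log2 fold change of 0.25 ± 0.82 had a 95% interval of -1.66 to 2.15 without the block, and with it 0.24 ± 0.12 and -0.04 to 0.52 (edgeR adjusted p = 0.315). Neither was called. Twist1 and Twist2 thus differed in how unevenly they were spread over the animals: the highest animal mean was 1.55 times the lowest for Twist1 and 6.09 times for Twist2. The ratio of Twist1 to Twist2 in RPKM was 1.59 and 0.98 in the libraries of BW35770 and 3.06 to 5.69 in the other 4. The size of that ratio rests on the annotated exon lengths, 444 bases for Twist1 and 1327 for Twist2.

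Vim encodes vimentin, the intermediate filament protein of mesenchymal cells. It is ENSPEMG00000012261 (scaffold KI615596.1, bases 3197796 to 3206467, plus strand, 9 exons). Controls stood at 8732, 9455 and 9763 CPM and tunicamycin libraries at 8206, 7494 and 9398 CPM. Each animal was lower with treatment, by -0.09, -0.34 and -0.05 in log2 CPM, with overlap of the groups. The estimate of -0.16 ± 0.16 on the log2 scale (95% interval -0.53 to 0.22, edgeR adjusted p = 0.753) was not called. With the animal as a block it was -0.16 ± 0.13 (edgeR adjusted p = 0.552), which was not called either.

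Vim was also the steadiest of the 10 genes between animals. Its highest animal mean was 1.13 times its lowest, and no difference between animals was called (edgeR adjusted p = 0.705). The SD of its log2 CPM over the 6 libraries was 0.15, below the median of 0.31 over all tested genes.

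S100a4, also called fibroblast-specific protein 1 although macrophages make it too, encodes a small calcium-binding protein that acts on non-muscle myosin. It is ENSPEMG00000013716 (scaffold KI615391.1, bases 1527728 to 1529170, minus strand, 3 exons). Controls stood at 133.1, 50.8 and 85.1 CPM and tunicamycin libraries at 84.7, 18.9 and 88.3 CPM in BW35770, BW35772 and BW35773. The animals did not move together: the log2 differences were -0.65, -1.43 and 0.05, and the groups overlapped.

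The log2 fold change of S100a4 was -0.49 ± 0.57 (95% interval -1.80 to 0.83, edgeR adjusted p = 0.783) and with the animal as a block -0.67 ± 0.25 (edgeR adjusted p = 0.188), neither of them called. Without animal BW35773 the blocked fit called S100a4 lower (edgeR adjusted p = 0.0214), beside 6.06% of tested genes, while over 15 alternatives the adjusted p ran from 0.0214 to 0.978. BW35770 exceeded BW35772 by 1.73 ± 0.31 on the log2 scale (edgeR adjusted p = 0.0276), but the test over all 3 animals missed the threshold (edgeR adjusted p = 0.0537; 2.71e-07 to 0.358 over 11 alternatives, 6 of which called it).

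Lum encodes lumican, a keratan sulfate proteoglycan of the small leucine-rich family that spaces collagen fibrils. It is ENSPEMG00000019303 (scaffold KI615717.1, bases 489719 to 496568, minus strand, 3 exons). Controls stood at 104.8, 132.5 and 175.0 CPM and tunicamycin libraries at 81.7, 95.1 and 145.6 CPM. The groups overlapped, and each animal was lower with treatment, by -0.36, -0.48 and -0.27 in log2 CPM. Its estimate on the log2 scale was -0.35 ± 0.26 (95% interval -0.96 to 0.25, edgeR adjusted p = 0.609) and with the block -0.37 ± 0.11 (95% interval -0.62 to -0.11, edgeR adjusted p = 0.107), neither of them called.

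Between animals Lum was lowest in BW35770, where Thy1 was highest, with means of 93.3, 113.8 and 160.3 CPM in BW35770, BW35772 and BW35773. BW35772 lay below BW35773 in both genes. The cultures differed (edgeR F test, adjusted p = 0.0436; 0.000812 to 0.533 over 11 alternatives), and BW35770 lay below BW35773 by a log2 difference of -0.79 ± 0.13 (edgeR adjusted p = 0.0281). This call was lost without the control or the tunicamycin library of BW35770 (edgeR adjusted p = 0.518 and 0.533), without the tunicamycin library of BW35773 (0.062) and without a treatment term (0.43). In the same order these fits called 64, 74, 670 and 146 of all tested genes, against 477 in the main fit. Other small leucine-rich proteoglycans were also uneven: 6 of 9 tested differed between animals, beside 3.53% of all tested genes. Without either library of BW35770 alone 1 of 9 was called, beside 64 of 13703 and 74 of 13660 tested genes. Fibromodulin (Fmod) averaged 83.8 CPM and stood at 19.0 and 21.7 CPM in BW35770 and at 80.6 to 159.0 CPM in the other 4 libraries (edgeR adjusted p = 0.0011 between animals).

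Seen as a group, 7 of the 10 genes had a log2 fold change below 0 with tunicamycin, and their median was -0.25, beside -0.01 over all tested genes, of which 51.5% were below 0. Pdgfra, Prrx1, Twist1, Vim and Lum were lower in all 3 animals, 5 of the 10 genes, beside 21.7% of tested genes. Pdgfrb and Twist2 were higher in all 3. With the animal as a block the median was -0.25, beside -0.03 over all genes. The median is a description and was given no test.

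**Figure D5:**
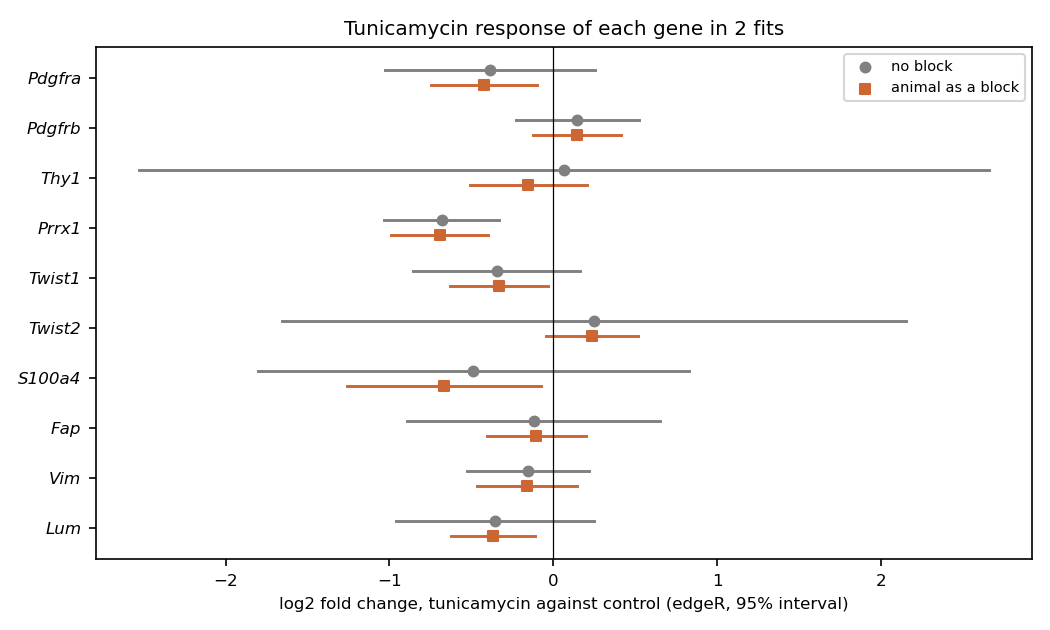
Log2 fold change of each gene, tunicamycin against control, with 95% intervals from the edgeR fit without an animal term (grey circles) and with the animal as a block (orange squares). The interval of Thy1 ran from -2.53 to 2.66 without the block and from -0.51 to 0.20 with it, and Prrx1 lay below 0 in both fits.

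Without the block the intervals were widest for Thy1, Twist2 and S100a4. For Thy1 the log2 fold change was 0.07 ± 1.11 (95% interval -2.53 to 2.66) without the block and -0.15 ± 0.15 (95% interval -0.51 to 0.20, edgeR adjusted p = 0.629) with it. Its differences within the animals were 0.14, -0.55 and -0.05 in log2 CPM, so the animals did not share a direction. A missed threshold does not show that Thy1, or any other of these genes, was left unaltered.

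Genes around these 10 were taken from lists of their pathways and families. Among 24 tested mesenchymal transcription factors other than the members, 0 rose and 1 fell, beside 1.78% and 0.792% of all tested genes. With the block 1 rose and 3 fell, beside 3.07% and 2.4%. The gene that fell without the block was Snai1, a zinc-finger repressor that acts with Twist1 in the loss of epithelial character. It went from 128.1, 116.1 and 102.6 CPM in the controls of BW35770, BW35772 and BW35773 to 34.1, 22.5 and 25.5 CPM, and so fell by 2.08 ± 0.18 on the log2 scale (edgeR adjusted p = 0.00196). Osr1, a zinc-finger factor of limb connective tissue, stood 1.01 ± 0.26 higher on the log2 scale and was called with the block (edgeR adjusted p = 0.0233, and 0.106 without it), as were Hand2 and Foxc2 in the other direction.

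In the list of S100 proteins and their partners 1 of 11 tested genes fell and 0 rose, beside 0.792% and 1.78% of all tested genes. With the block 3 fell, beside 2.4%. S100a11 fell by 1.39 ± 0.17 on the log2 scale, from 409.9, 493.7 and 452.5 CPM to 190.0, 133.8 and 192.3 CPM (edgeR adjusted p = 0.0094). That call was lost without the control library of BW35772 (edgeR adjusted p = 0.0576) or of BW35773 (0.0611). Those fits called 15 and 19 of all tested genes lower, against 107 in the main fit. The estimate for S100a6 was -0.86 ± 0.28 (edgeR adjusted p = 0.183, or 0.0301 when blocked), and S100b was the other gene called with the block. The median of this list was -0.64, beside -0.01 over all tested genes. S100a11 was lower in all 3 animals, and S100a4 in 2 of 3.

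PDGF ligands and signalling proteins gave 0 edgeR calls in either direction among 17 tested, with and without the block, and 2 at an unadjusted p under 0.05. Nck1, an adaptor bound by the activated receptors, had the smallest p, at 0.47 ± 0.11 on the log2 scale (edgeR adjusted p = 0.0699). It was called higher by DESeq2 (adjusted p = 0.00135) and by edgeR with library totals as the only scaling (adjusted p = 0.0379). Pdgfc, a ligand of the alpha receptor, had the next smallest p in the unblocked fit, at -0.54 ± 0.20 (edgeR adjusted p = 0.248). In the blocked fit Pdgfc was called lower without BW35772 (edgeR adjusted p = 0.0114) and Lrp1, an endocytic receptor, higher without BW35773 (edgeR adjusted p = 0.0119). Relatives of Fap (6 tested) and intermediate filaments with their linkers (9 tested) gave 0 calls in both edgeR fits and 0 by DESeq2. Over all genes DESeq2 called 676 of 11928 higher and 3.36% lower. These lists also gave 0 at an unadjusted edgeR p under 0.05, beside 15.5% of all tested genes. The blocked fit without BW35773 called Macf1, a cytoskeletal linker, higher (edgeR adjusted p = 0.0371). The smallest p in these lists belonged to Prepl and Lmnb2, at log2 fold changes of 0.33 ± 0.30 and -0.30 ± 0.18. Of 9 small leucine-rich proteoglycans 0 were called by edgeR without the block or by DESeq2, with 0 at an unadjusted edgeR p under 0.05. With the block 1 fell, beside 2.4% of all tested genes. It was Prelp, a collagen-binding protein (log2 fold change -0.80 ± 0.39, edgeR adjusted p = 0.387 without and 0.0191 with the block). The blocked fit without BW35770 called 0 of these proteoglycans, beside 74 higher and 37 lower of 13526 tested genes.

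Among 33 tested genes of a broader fibroblast list 1 fell and 0 rose, beside 0.792% and 1.78% of all tested genes. With the block 3 fell, beside 2.4%. Islr, an immunoglobulin-domain protein of mesenchymal stromal cells, went from 114.1, 111.8 and 123.9 CPM to 44.5, 42.2 and 56.8 CPM and fell by 1.29 ± 0.14 on the log2 scale (edgeR adjusted p = 0.00572). Loxl1 and Cd248 were the others called with the block. Between animals 16 of these 33 genes differed, 48.5% beside 3.53% of all tested genes. Without the control or the tunicamycin library of BW35770 it was 2 or 3, beside 64 of 13703 and 74 of 13660 tested genes. With all libraries BW35770 was higher than each of the other animals in 6 of the 33 and lower in 5. The 36 of these genes in the table summed to 21390 and 21860 CPM in BW35770 and to 28270 to 36980 CPM in the other 4 libraries.

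For each of the 10 genes the named gene with the nearest pattern was sought among 8907 genes whose mean log2 CPM reached 1. Nearness was the root mean square difference of centred log2 CPM over the 6 libraries, which come from 3 animals. Twist2 was nearest to Lrrc32, a membrane anchor for latent TGF-beta, at 0.16, and only that gene lay within 0.2 of it. Thy1 was nearest to Atp8b1, a phospholipid flippase, at 0.29, and S100a4 to Ppbp, a chemokine precursor, at 0.26, with 0 genes within 0.2 of either.

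Lrrc32 stood at 30.9 and 35.9 CPM in BW35770 and at 4.13 to 8.98 CPM in the other 4 libraries. Fap was nearest to Col6a2, a chain of collagen VI, at 0.07, and Prrx1 to Gpd1l, a glycerol-3-phosphate dehydrogenase relative, at 0.06. Pdgfra was nearest to Tlr4, Pdgfrb to Impact, Twist1 to Dpy19l1, Lum to Tor3a and Vim to Bdh1, at 0.02 to 0.09. Such near matches were common for flat genes, since 29.5% of the candidates lay within 0.2 of Vim. Among the 10 genes themselves the closest pair was Pdgfra and Prrx1, at 0.25.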

How the data were processed

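RNA was sequenced from 6 libraries, 3 control and 3 tunicamycin. The authors deposited raw read counts, 1 column per library. STAR 2.6.1, SAMtools 1.6 and featureCounts of the Subread package are named in the submitters' processing notes. No source used here gives the genome build, the annotation release or the use of multi-mapped reads. Libraries were directional per the labels. Gene names, positions and exon lengths are those of the deposited table.

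The tests used edgeR 4.0.16 under R 4.3.3 (filterByExpr at a minimum count of 10 and total of 15, TMM scaling, glmQLFit and glmQLFTest, two-sided, Benjamini-Hochberg adjustment over 13503 genes, threshold 0.05). The tunicamycin fit had no other term. The test between animals was an F test of the animal terms with treatment in the model, and each of the 3 pairs of animals was also contrasted, which was added after the data were seen. RPKM is CPM per kilobase of exon, and differences within an animal use a prior count of 2. An SE is the log2 difference divided by the square root of F.

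Titles name the animal, so libraries with the same number are paired. Across genes, which are not independent, the pairs' deviations from their group means had correlations of 0.66, 0.41 and 0.22. A fit with the animal as a replicate block was therefore run. Alternatives were other scalings, no filter, DESeq2 1.42.0, limma-voom (limma 3.58.1), the block and each library or animal left out. The steps were tested on simulated data. Where treatment was simulated the animals had equal means, so the power of the unblocked fit under differences between animals was not tested.

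The genes and lists were chosen with earlier results of these data known. Named genes were the 10 members, the nearest pattern to each, the 2 smallest p-values of each surrounding list and the 2 most abundant genes of each list of other cells; other names were chosen after their values were seen. A gene that this rule names is not reported here. P-values rest on 3 animals, with 1 culture each.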

Additional observations from a re-analysis of the deposited data

How the results depend on the processing

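Under 15 alternatives for tunicamycin and 11 for the animals, calls of Thy1 and Twist2 between animals held in each. With the replicate block 415 genes were higher and 324 lower and 1 of the 10 was lower. Without both libraries of BW35770, BW35772 or BW35773 the blocked fit gave 74, 497 and 806 higher, 37, 451 and 826 lower, and 0, 1 and 2 of the 10 lower. DESeq2 called 676 higher, 401 lower and 1 of the 10 lower. Leaving out single libraries gave 46 to 313 higher and 15 to 251 lower, against 241 and 107, and 0 of the 10 in either direction. Between animals 477 genes were called, 789 with no filter, 1045 by DESeq2, 146 with no treatment term and 64 to 1997 without single libraries. Of the 10, 4 were called, against 2 with no treatment term and 2 to 6 without single libraries.

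Directions of uncalled genes turned in 12 of 150 values. Thy1 turned to -0.14 in limma-voom, -0.15 with the block, and -0.30 and -0.17 with the block without BW35770 or BW35773. Without single libraries its log2 fold change ran from -1.89 to 1.71, that of Twist2 from -0.88 to 1.38 and that of Fap from -0.37 to 0.19. Such fits without pairing weigh the animals unequally. The other causes were not tested. With 3 animals, differences smaller than the printed intervals could not be resolved.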
